A study of Mus musculus with 7 samples.

Results

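Astrocytes are the glial cells that wrap synapses and send endfeet to blood vessels. In the resting brain they clear glutamate and potassium that neurons release, move water and solutes across their membranes, exchange small molecules through gap junctions and secrete lipid carriers and matrix proteins. The genes behind this housekeeping work are called homeostatic, as opposed to the filament and inflammatory genes, such as *Gfap* and *Vim*, that astrocytes raise when they become reactive. The 36 homeostatic astrocyte genes described here were chosen by symbol and arranged by the role of their products, and they were compared between forebrains with and without *Lhx6*. All 36 were found among the 47729 genes of the count table, all 36 had at least 10 counts in at least 3 libraries and were tested with 19684 genes in all, and none was at 0 in any library.

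*Lhx6* is a transcription factor gene that cortical interneurons from the medial ganglionic eminence need to mature. RNA was sequenced from the whole forebrain of mice at postnatal day 15 (P15), on an F1(C57BL/6 X 129Sv) background, in 4 libraries of *Lhx6*+/- mice (control) and 3 libraries of *Lhx6*-/- mice (mutant). The null allele was in the germline, so it was present in all cells of the animal, the controls carried 1 null allele themselves, and no wild-type brain was among the samples. Each library pooled 2 animals, and the sexes in the pools differed, so the error given is a spread between pools. Because whole tissue was measured, fewer cells of a type and less RNA per cell cannot be told apart, nor can more cells and more RNA per cell.

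The libraries held between 32556304 and 38069151 expected counts, and the columns of the table gave each library a genotype and a number. The controls were libraries 2, 3, 10 and 11 and the mutants libraries 5, 12 and 13, and values below follow this order. Counts were scaled to a common library size, and these normalized counts are the unit of every level below unless a length scale is named. *Lhx6* itself had 615, 522, 476 and 522 normalized counts in the controls and 70.9, 76.6 and 70.1 in the mutants. On the first principal component, which held 39.6% of the variance over all tested genes, libraries 2, 3 and 5 lay apart from libraries 10 to 13. Both runs of numbers held both genotypes, so differences are also given within each run, although no label calls the runs a batch. RNA integrity numbers of the pools ran from 9 to 10.

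Most homeostatic genes were slightly higher in the mutants, and few of these differences passed the test. Genotypes were compared by edgeR's quasi-likelihood F test, with p-values adjusted over the 19684 tested genes (Benjamini-Hochberg) and a threshold of 0.05; SE is the standard error of a log2 fold change, mutant over control. Of the 36 genes, 2 rose past this threshold, *Htra1* and *Hepacam*, and none fell (1 of those below 0, *Gpc5*, had an unadjusted p within 0.05, and DESeq2 called none lower). That is 5.56% of the 36, against 4.85% of all tested genes that passed in either direction and 2.97% that passed as higher in mutants, so the count of calls alone was near the background. The direction was uneven: 33 of 36 genes (91.7%) had a log2 fold change above 0, against 47.8% of all tested genes. The median log2 fold change of the 36 was 0.16, against -0.013 over all tested genes, while the median size of the change regardless of sign was 0.17 for both. Values of the 36 ran from -0.17 (*Gpc5*) to 0.85 (*Mt2*). Before adjustment, the p-value of 12 of them (33.3%) was within 0.05, as was that of 18.2% of all tested genes.

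For 12 of the 36 (33.3%), all 3 mutant libraries lay above all 4 control libraries, against 10.7% of tested genes. These were *Slc1a2*, *Glul*, *Gja1*, *Aqp4*, *Atp1b2*, *Hepacam*, *Ttyh1*, *Fgfr3*, *F3*, *Cst3*, *Htra1* and *Mt2*. For *Gpc5* alone, 2.78% of the list, all mutant libraries lay below all controls, against 9% of tested genes, and the genotypes overlapped for the other 23. Within each of the runs of library numbers taken separately, the mutants lay above the controls of the same run for 21 of the 36 (58.3%), against 17.7% of tested genes.

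The number of calls depended on the fit. DESeq2 called 8 of the 36 higher, 22.2% against 5.09% of tested genes, and edgeR with a covariate for the run of library numbers called 10 higher, 27.8% against 6.16%. The 8 were *Htra1*, *Gja1*, *Glul*, *Mt2*, *Hepacam*, *Ttyh1*, *Aqp4* and *Cst3*, and the 10 were these with *Mt1* and *Clu*. Conversely, both calls of the first fit were lost when any of control libraries 2, 10 and 11 or mutant libraries 5, 12 and 13 was left out. The adjusted p-values then ran from 0.0715 to 0.174 for *Htra1* and from 0.0801 to 0.178 for *Hepacam*.

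**Figure D1:**
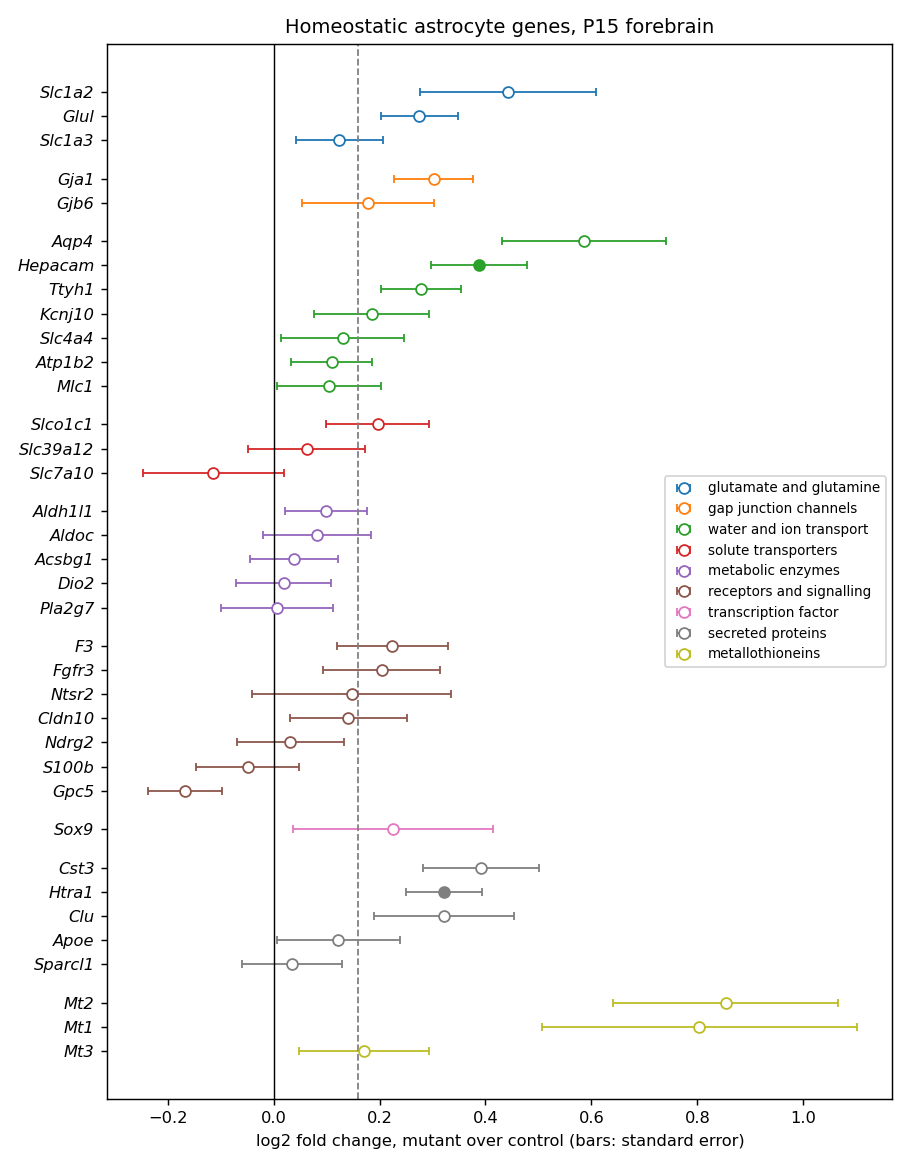
Log2 fold change of each of the 36 genes, mutant over control, on the horizontal axis, with genes grouped and coloured by role and bars for the standard error. Filled points mark *Htra1* and *Hepacam*, the 2 genes past the threshold, and the dashed line marks the median of the 36 at 0.16, with 33 points to the right of 0.

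The metallothioneins, small cysteine-rich proteins that bind zinc and copper, held the largest differences among the 36. *Mt1* and *Mt2* are expressed in many tissues and are induced by metals and glucocorticoids, and *Mt3* is the form typical of the brain. All 3 lie next to each other on the plus strand of chromosome 8. The bases just upstream of their annotated start sites are shown, a choice made after *Mt1* and *Mt2* were seen to move together and *Mt3* less so. The metal response element, the motif through which zinc acts on metallothionein genes, has a short known core. The windows are RefSeq's on GRCm38.p6, 250 bases each, written 5' to 3' on the plus strand: chr8:94178839-94179088 for *Mt1*, chr8:94172368-94172617 for *Mt2* and chr8:94152357-94152606 for *Mt3*. Capitals mark matches on either strand to TGCACNC or TGCGCNC.
Mt1: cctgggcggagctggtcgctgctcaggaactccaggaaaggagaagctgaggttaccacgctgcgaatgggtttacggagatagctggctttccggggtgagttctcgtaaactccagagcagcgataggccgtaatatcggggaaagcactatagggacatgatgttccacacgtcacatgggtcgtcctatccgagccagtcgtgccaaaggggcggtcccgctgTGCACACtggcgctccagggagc
Mt2: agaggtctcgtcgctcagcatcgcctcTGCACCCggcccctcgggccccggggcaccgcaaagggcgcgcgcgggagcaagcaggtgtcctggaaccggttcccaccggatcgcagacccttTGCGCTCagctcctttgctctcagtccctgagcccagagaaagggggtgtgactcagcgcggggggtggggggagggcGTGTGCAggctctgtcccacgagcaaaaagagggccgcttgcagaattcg
Mt3: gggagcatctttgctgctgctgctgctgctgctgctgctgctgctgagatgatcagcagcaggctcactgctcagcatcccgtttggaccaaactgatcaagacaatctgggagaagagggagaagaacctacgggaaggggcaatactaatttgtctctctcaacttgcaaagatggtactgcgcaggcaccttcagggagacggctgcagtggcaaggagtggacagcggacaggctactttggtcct

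With the first 50 bases from the start site added, which are not printed, the window of *Mt1* held 3 matches, that of *Mt2* 4 and that of *Mt3* 1. In *Mt1* they began 23 bases before the start and at bases 3 and 21 after it. In *Mt2* they began 223, 128 and 50 bases before the start and at base 5 after it, and in *Mt3* the match was at base 28 after it. At least 1 match was present in 25.7% of the 32851 windows of this length in the table, at least 3 in 1.97% and at least 4 in 0.517%. Of the 36 genes, 31 had windows, 39 in all, and 10 of the 39 windows (25.6%) held at least 1 match, a share near that of all windows. A match of letters is a description of the window and was not tested for binding. The motif was chosen with the expression changes known, and a link between matches and expression was not tested.

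*Mt2* had 1394, 1817, 2654 and 2721 normalized counts in the controls and 3658, 3986 and 3997 in the mutants. All mutants lay above all controls, and the controls fell into a lower pair and a higher pair by run. On average the mutants were at 181% of the controls, with a log2 fold change of 0.85 (SE 0.213, adjusted p = 0.0593). Within libraries 2, 3 and 5 the difference was 1.2 on the log2 scale, and within libraries 10 to 13 it was 0.57. With the covariate for the run of library numbers the adjusted p was 0.00659, the smallest among the 36.

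*Mt1* had 3239, 4199, 7234 and 7763 in the controls and 7690.3, 11811 and 9870.2 in the mutants. Here the lowest mutant lay just under the highest control, but within each run the mutants were above the controls, by 1.06 and 0.53 on the log2 scale. Its log2 fold change of 0.80 (SE 0.298, adjusted p = 0.194) passed the threshold with the covariate only (adjusted p = 0.00984). The controls also differed between the runs: *Mt1* was 1.02 higher on the log2 scale in control libraries 10 and 11 than in 2 and 3. For *Mt2* this step was 0.76, for *Ntsr2*, a neurotensin receptor, it was 0.55, and no other gene of the 36 exceeded 0.5. *Mt3* had 7029.8, 6733, 6303 and 5541 in the controls and 8459, 6412 and 6758 in the mutants, with overlapping genotypes and a log2 fold change of 0.17 (SE 0.123). That change was 0.052 without mutant library 5, and from 0.11 to 0.25 with any other library left out. The step of *Mt3* between the runs went the other way, at -0.22 in controls.

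**Figure D2:**
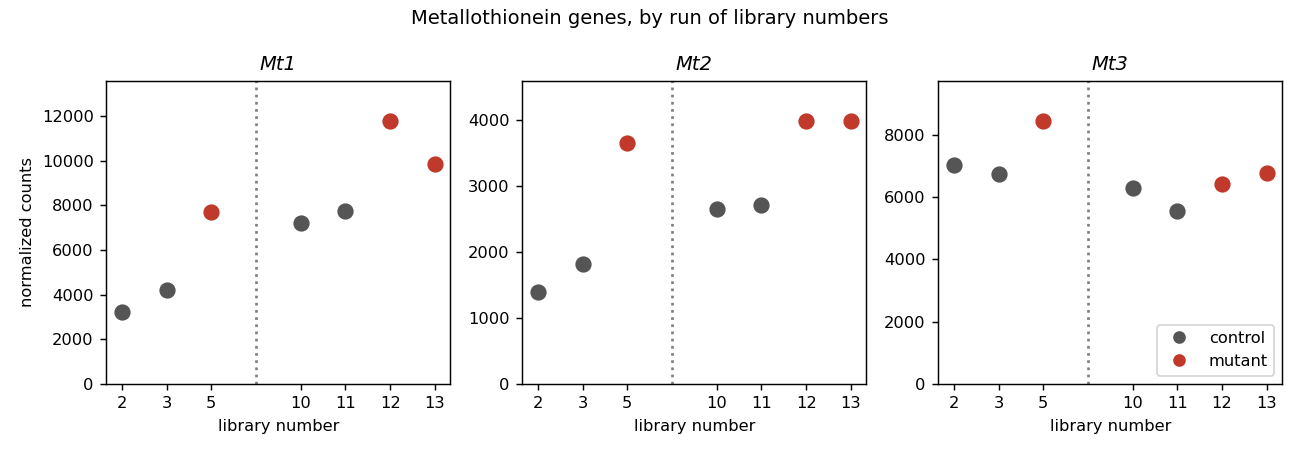
Normalized counts, from 0, of *Mt1*, *Mt2* and *Mt3* in each library, ordered by library number, with grey points for control and red for mutant; the dotted line separates libraries 2, 3 and 5 from libraries 10 to 13. In each run the mutants sit above the controls for all 3 genes, and *Mt1* and *Mt2* are higher in control libraries 10 and 11 than in 2 and 3.

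Other genes of zinc and metal handling were mixed in direction. Of 10 such genes, 1 fell past the threshold and none rose with edgeR without the covariate or with DESeq2, while the fit with the covariate also called 1 higher, *Hmox1* (2 had an unadjusted p within 0.05 as higher), with 5 of 10 above 0 and a median log2 fold change of 0.031. The gene that fell was *Slc30a3*, which encodes the zinc transporter of glutamatergic synaptic vesicles (a mean of 5005 ± 166 in controls and 2468 ± 252 in mutants, SD over 4 and 3 pools), at -1.02 on the log2 scale (adjusted p = 0.000674). *Mtf1*, the transcription factor that binds metal response elements, was at -0.10, and *Slc30a1*, a zinc exporter that this factor also regulates, was at 0.11, neither past the threshold. *Hmox1*, an enzyme of haem breakdown induced by oxidative stress, was at 0.57 (adjusted p = 0.170 without the covariate).

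Glutamate uptake rests on *Slc1a2* (GLT-1) and *Slc1a3* (GLAST), and *Glul* encodes glutamine synthetase, which turns the glutamate taken up into glutamine. *Slc1a2* was the most abundant of the 36 by counts, with 207687, 138448, 212435 and 229945 in the controls and 232566, 288170 and 282642 in the mutants. The mutants lay above all controls, mutant 5 by little, and control 3 was far below the other controls. Its log2 fold change was 0.44 (SE 0.166, adjusted p = 0.200), and 0.31 without control library 3. Under all 11 alternatives with a test it stayed short of the threshold (adjusted p from 0.0825 to 0.479). *Slc1a3* had 26394, 23308, 24293 and 22874 in the controls and 27248, 25153 and 26789 in the mutants, which overlapped, with a log2 fold change of 0.12 (SE 0.0827).

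*Glul* had 51616, 50917, 52757 and 49534 in the controls and 65363, 60212 and 60275 in the mutants. The control libraries lay within a CV of 2.63% and the mutants lay clear above them, at 121% of their mean. Its log2 fold change of 0.27 (SE 0.0728) had an adjusted p of 0.0730 with edgeR and 0.00113 with DESeq2. Of its 36-base words, the length of the reads, 16.3% occur in other genes of the table, among them the pseudogene *Glns-ps1*, so its count is less certain than most. Of 12 partners in glutamate and glutamine handling, none passed the threshold with edgeR without the covariate, and 6 had an unadjusted p within 0.05. The 12 were glutaminases, glutamate dehydrogenase (*Glud1*), glutamine carriers, a neutral amino acid carrier (*Slc1a4*) and other glutamate transporters. DESeq2 and edgeR with the covariate each called *Slc38a3* higher and *Slc1a6* lower. Of the 12, 8 were above 0 and the median was 0.06. Nearest to the threshold without the covariate was *Slc1a6*, the glutamate transporter of Purkinje cells and some forebrain neurons, at -0.47 (adjusted p = 0.0561). *Slc38a3*, a glutamine carrier of astrocytes, was at 0.40 (adjusted p = 0.110).

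**Figure D3:**
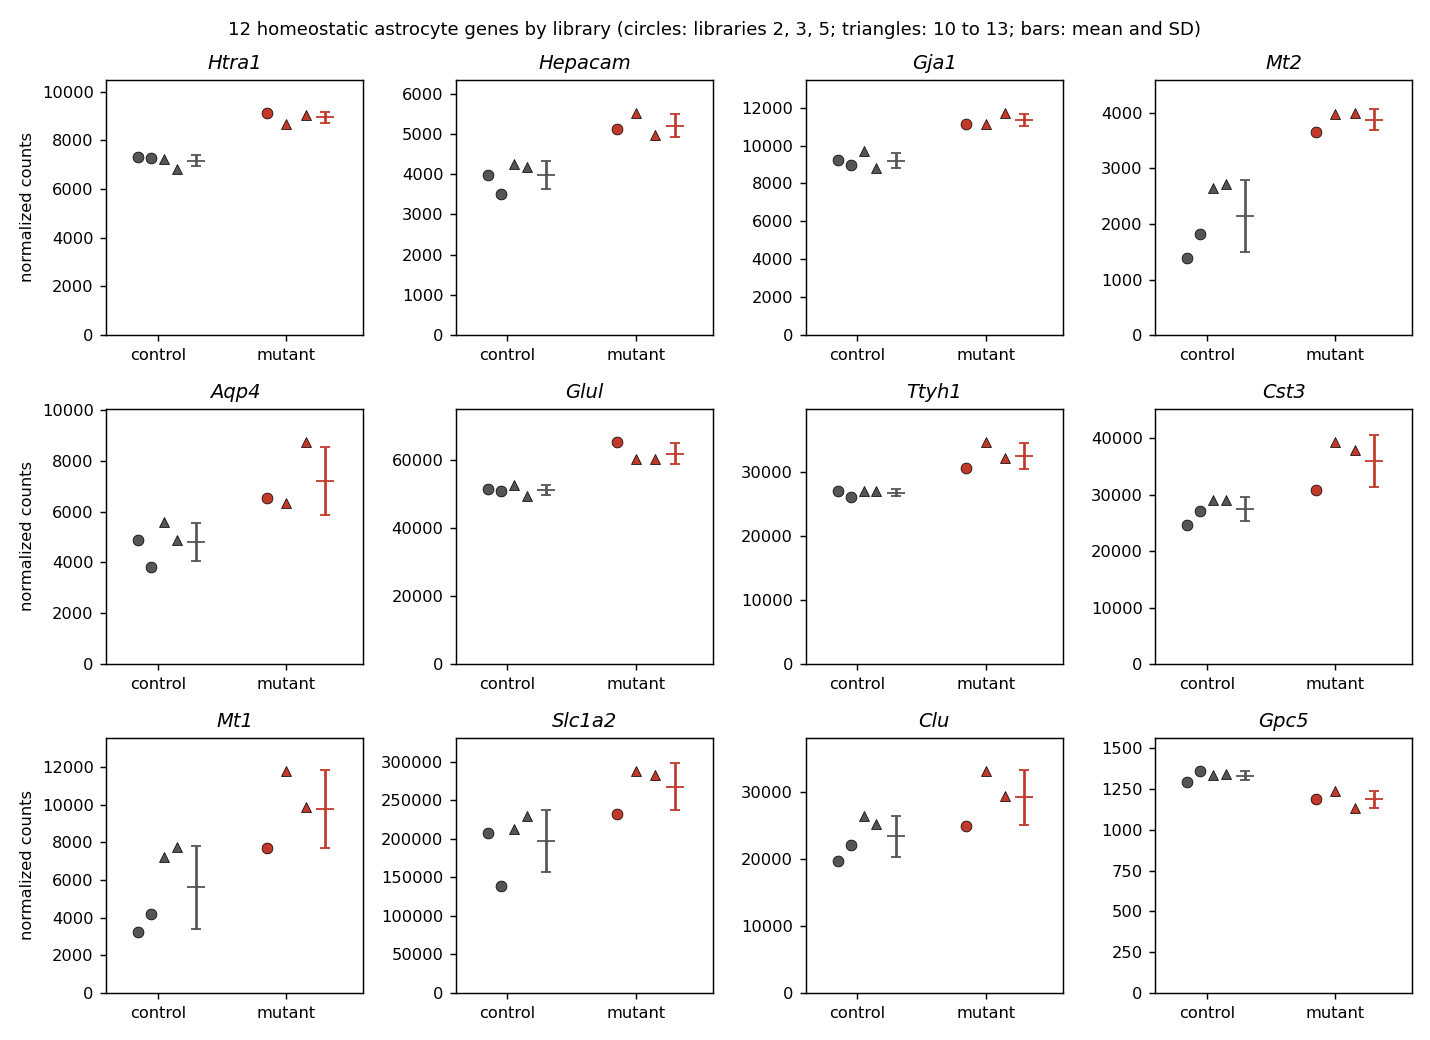
Normalized counts, from 0, of the 12 genes whose p-value before adjustment was within 0.05, in control (grey) and mutant (red) libraries, with bars for the mean and SD of each genotype; circles are libraries 2, 3 and 5 and triangles libraries 10 to 13. The mutants sit above all controls in 9 panels, overlap them for *Mt1* and *Clu*, and sit below them for *Gpc5*.

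The gap junction genes were both above 0. *Gja1* encodes connexin 43, the main channel between astrocytes, and had 9253, 8979.7, 9729.6 and 8825 in the controls and 11146, 11150.3 and 11717 in the mutants. The genotypes were well apart, at 123% of the control mean, with a log2 fold change of 0.30 (SE 0.0747). Its adjusted p was 0.0575, the nearest of the 36 to the threshold among those that missed it, and DESeq2 and the fit with the covariate called it. *Gjb6*, connexin 30, had 1892, 2099, 2705 and 2147 in the controls and 2295, 2735 and 2477 in the mutants, with overlap and a log2 fold change of 0.18 (SE 0.125). Leaving out 1 library moved this change to between 0.11 and 0.29.

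The 7 genes of water, ion and membrane transport all had positive changes, from 0.11 to 0.59, and 1 of them rose past the threshold. This was *Hepacam* (chromosome 9, 37367368 to 37386572, plus strand, GRCm38), which encodes GlialCAM, an adhesion molecule that anchors the membrane protein of *Mlc1* and a chloride channel at astrocyte junctions. It had 3984, 3498, 4253 and 4176 in the controls and 5118, 5516 and 4979 in the mutants. The lowest mutant exceeded the highest control, and the log2 fold change was 0.39 (SE 0.0901, adjusted p = 0.0472), with 0.46 and 0.31 within the runs. *Mlc1* itself, with which it forms a complex, was at 0.11 with overlapping genotypes.

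*Aqp4*, the water channel of astrocyte endfeet, had 4896, 3810.0, 5597 and 4873 in the controls and 6524, 6322 and 8739 in the mutants. All mutants were above all controls, with mutant 13 the highest, and the mean was 150.1% of the control mean. Its log2 fold change was 0.59 (SE 0.154), its adjusted p 0.0716 with edgeR and 0.00517 with DESeq2, and its differences within the runs 0.60 and 0.51. Around the dystrophin complex that holds aquaporin-4 at endfeet, 6 genes were listed, 1 of which, *Cav1* (caveolin-1), is not part of it. None of the 6 passed the threshold with edgeR without the covariate. Before adjustment 2 had a p within 0.05, and 5 were above 0, with a median of 0.17. *Dtna*, which encodes alpha-dystrobrevin and was the 1 gene called by DESeq2 and by edgeR with the covariate, was at 0.42 (adjusted p = 0.0509 without it), with all mutants above all controls, while *Dmd*, dystrophin, was at -0.084.

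*Kcnj10*, the Kir4.1 potassium channel, had 11089.8, 8702, 10844 and 10752 in the controls and 12646, 10723 and 11919 in the mutants. Mutant 12 lay among the controls, and the log2 fold change was 0.19 (SE 0.108), or 0.11 without control library 3. *Ttyh1*, which encodes a membrane protein of the tweety family, had 27097, 26055, 26976 and 27083 in the controls and 30690.3, 34710 and 32124 in the mutants. It had the smallest spread between controls of the 36, a CV of 1.87%, and its log2 fold change of 0.28 (SE 0.0763, adjusted p = 0.0806) was called by DESeq2 and with the covariate. Its exons overlap opposite-strand genes over 6.65% of their length, and strand of the counting is not given in the sources used here. *Slc4a4*, a sodium bicarbonate cotransporter, was at 0.13 with overlap (0.037 without control library 3), and *Atp1b2*, the beta subunit of the sodium pump typical of astrocytes, was at 0.11 with the mutants just above the controls.

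Among the 5 secreted proteins, all positive, *Htra1* rose past the threshold. It encodes a serine protease of the extracellular space and lies on chromosome 7 (130936111 to 130985660, plus strand, GRCm38). It had 7301, 7269.5, 7215 and 6812 in the controls and 9116, 8683 and 9022 in the mutants. Both genotypes were tight, with SDs of 228 around means of 7149 and 8940.1, and the log2 fold change was 0.32 (SE 0.0717, adjusted p = 0.0397). Within the runs the difference was 0.32 and 0.34, and DESeq2 gave an adjusted p of 7.45e-05.

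*Cst3*, which encodes the protease inhibitor cystatin C, had 24566, 27123, 28999.7 and 28984 in the controls and 30734, 39302 and 37866 in the mutants. The mutants were above all controls, mutant 5 least so, and the log2 fold change was 0.39 (SE 0.109, adjusted p = 0.0847). Without mutant library 5 it was 0.50, with an adjusted p of 0.0498. *Clu*, the chaperone clusterin, was at 0.32 (SE 0.132, adjusted p = 0.240), and mutant 5 lay below control libraries 10 and 11. *Apoe*, the main lipid carrier of the brain, was at 0.12, and *Sparcl1*, the synapse-promoting protein hevin, at 0.035, both with overlap. The value of *Apoe* ran from 0.053 to 0.19 with 1 library left out. Of 8 genes of apolipoprotein receptors and lipid export, 1 rose, none fell and the median was 0.13. The 1 that rose was *Abca1*, the pump that loads lipid onto apolipoprotein E (0.79, adjusted p = 0.0276). Before adjustment, 3 had a p within 0.05 as higher and 2 as lower. DESeq2 called 2 higher and 1 lower, and edgeR with the covariate 3 higher and 3 lower.

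**Figure D4:**
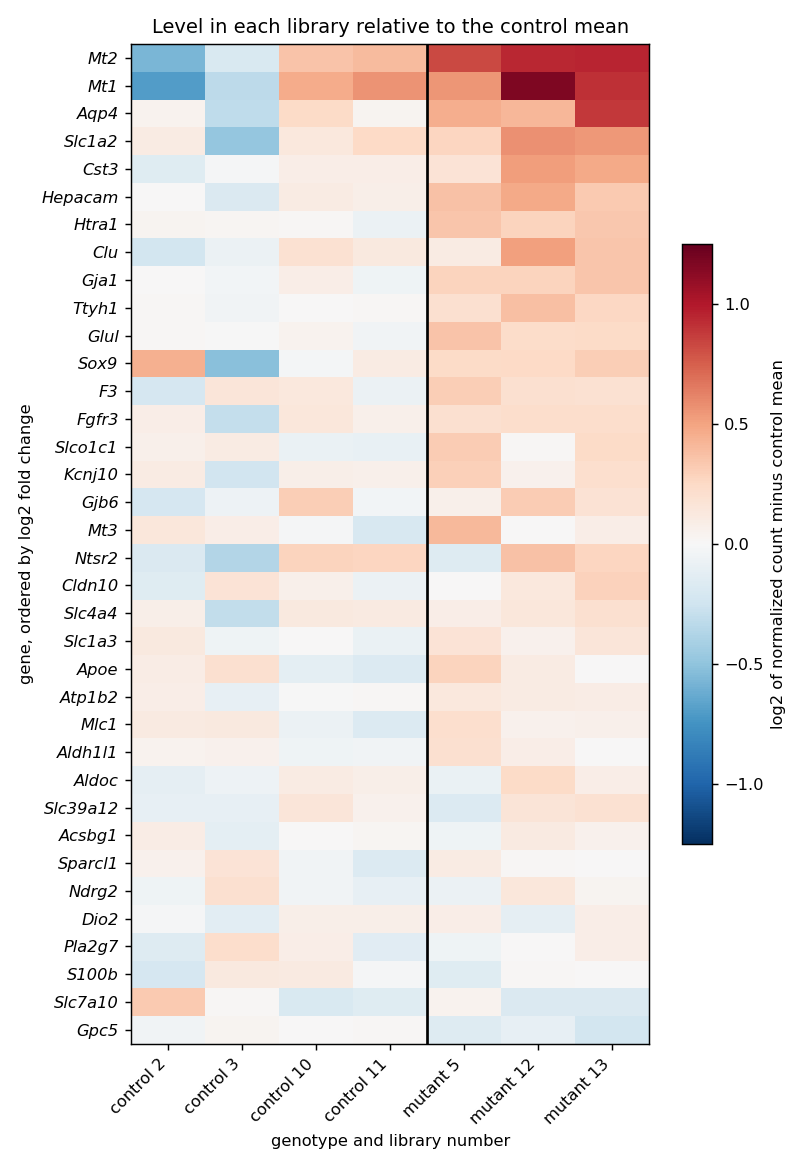
Colour gives the log2 normalized count of each of the 36 genes in each library minus the mean over the 4 controls, with genes in rows ordered by log2 fold change and a black line between control and mutant libraries. Red fills most mutant cells of the upper rows, *Mt1* and *Mt2* differ most between controls, and *Slc7a10* and *Gpc5* at the bottom are below the control mean in mutants 12 and 13.

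The metabolic enzymes differed least. *Aldh1l1*, the folate enzyme used as a pan-astrocyte marker, *Aldoc*, the brain aldolase, *Acsbg1*, a fatty acid ligase, *Dio2*, the deiodinase that makes active thyroid hormone, and *Pla2g7*, a secreted phospholipase, had log2 fold changes between 0.0069 and 0.099. The genotypes overlapped for all 5. *Aldh1l1* was the highest of these, with 3350.4, 3394, 3152 and 3153 in the controls and 3753, 3452 and 3278 in the mutants, where mutant 13 lay below control libraries 2 and 3. Its exons overlap other genes, including a gene on the same strand, over 13.37% of their length. Those of *Pla2g7* overlap an opposite-strand gene over 10.98%. The signs of *Dio2*, *Pla2g7* and *Aldoc* changed when single libraries were left out.

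The transcription factor *Sox9*, which marks astrocyte nuclei, had the lowest level per kilobase of exon in controls of the 36 (229 normalized counts per kb) and a log2 fold change of 0.23 (SE 0.189), with controls from 639 to 1250.2 and mutants from 1089 to 1138. The mutants thus fell inside the range of the controls, and the change was 0.077 without control library 3 and 0.39 without control library 2. Of 9 further genes of astrocyte fate (transcription regulators and the receptor gene *Notch1*), 1 passed the threshold, and the median was 0.023. That gene was *Id3*, an inhibitor of basic helix-loop-helix factors, which rose by 1.16 on the log2 scale (adjusted p = 0.000659).

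The 7 receptor, signalling and adhesion genes were mixed. *F3* (tissue factor) and *Fgfr3*, a fibroblast growth factor receptor, were at 0.22 and 0.20 with all mutants above all controls. *Fgfr3* was at 0.12 without control library 3 and at 0.25 without control library 10, its extremes with 1 library left out. The exons of *Fgfr3* are shared with an opposite-strand gene over 13.9% of their length. *Ntsr2* was at 0.15, *Cldn10*, a claudin, at 0.14 and *Ndrg2* at 0.032, with overlap. When 1 library was left out, *Ntsr2* ran from 0.039 to 0.30 and *Cldn10* from 0.063 to 0.22. *S100b*, which encodes a calcium-binding protein, was at -0.049. *Gpc5*, a heparan sulfate proteoglycan of the cell surface, had 1289.7, 1361, 1336 and 1343 in the controls and 1189.8, 1238 and 1133 in the mutants. It was the only gene of the 36 with all mutants below all controls, at a log2 fold change of -0.17 (SE 0.0697, adjusted p = 0.249).

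Of the 3 solute transporters, *Slco1c1*, a thyroid hormone carrier of astrocytes and brain endothelium, was at 0.20, *Slc39a12*, a zinc importer, at 0.06 and *Slc7a10*, the carrier of small neutral amino acids including D-serine, at -0.11. The genotypes overlapped for each. *Slc7a10* also overlaps *Lrp3*, on the opposite strand, over 17.9% of its exon length. Among 6 further genes of thyroid hormone handling and response, 2 fell past the threshold and none rose with edgeR without the covariate, 3 fell and none rose with DESeq2, 2 fell and 1 rose (*Thrb*, a further receptor) with the covariate, and 2 had an unadjusted p within 0.05 as higher; the median was -0.21. The 2 that fell with edgeR were *Crym*, a cytosolic thyroid hormone binding protein (-1.18, adjusted p = 0.00224), and *Thra*, a thyroid hormone receptor (-0.56, adjusted p = 0.0222).

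Added together, the 36 genes made up 1.74% ± 0.0765 of the expected counts of the controls and 2.14% ± 0.0585 of those of the mutants (SD, n = 4 and 3 pools). Their summed normalized counts were 635151, 569427, 650408 and 650597 in the controls and 716975, 787882 and 770793 in the mutants. All mutants were above all controls, at 121% of the control mean. *Slc1a2* alone made up between 24.3% and 36.7% of this sum. Without it the sum was 429267 ± 7216 in controls and 490757 ± 7978 in mutants, or 114%. Per kilobase of exon, the highest levels in controls were those of *Cst3* (21657), *Apoe* (20020.4), *Sparcl1* (18703), *Glul* (15410) and *Slc1a2* (15010.2), and of these 5 the first, the fourth and the last had non-overlapping genotypes.

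Further astrocyte genes are given beside the 36. Of 30 other genes typical of astrocytes, 3 rose and 1 fell, 23 were above 0, and the median log2 fold change was 0.22. Before adjustment, 12 had a p within 0.05 as higher and 4 as lower. All mutants lay above all controls for 12 and below all controls for 3. DESeq2 called 5 higher and 1 lower and edgeR with the covariate 9 higher and 1 lower. *Scara3*, a scavenger receptor, rose from a mean of 973 ± 124 to 1629.9 ± 113 (SD over 4 and 3 pools, 0.74 on the log2 scale, adjusted p = 0.00771), *Slc14a1*, a urea transporter, by 0.74 (adjusted p = 0.0108) and *Bmpr1b*, a bone morphogenetic protein receptor, by 0.42 (adjusted p = 0.0445). *Mfge8*, a secreted protein that marks dying cells for uptake, fell by 0.55 on the log2 scale (adjusted p = 0.0277). Of 14 reactive astrocyte genes, 8 rose and none fell with edgeR, with or without the covariate, and with DESeq2 (none had an unadjusted p within 0.05 as lower), with a median of 1.04. *Gfap* had 6208, 6238, 7255 and 6445 in the controls and 26006, 22333 and 27248 in the mutants, and *Vim*, also a filament gene, rose by 1.12 on the log2 scale. The others were *C4b*, *Aspg*, *Serpina3n*, *Cd44*, *Timp1* and *Osmr*. The smallest change among the 8, that of *Osmr*, the oncostatin M receptor, was 0.71, and of the 36 homeostatic genes *Mt1* and *Mt2* alone were above that value.

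Markers of other cell types moved too, in both directions. All 8 endothelial and mural markers were above 0, with a median of 0.36 and all mutants above all controls for 4 of them; none passed the threshold with edgeR without the covariate, 6 had an unadjusted p within 0.05, DESeq2 called 4 higher and edgeR with the covariate called 6 higher. Their summed level ran from 15734 to 17718 in controls and from 21184 to 22085 in mutants. All 8 oligodendrocyte markers were below 0 (median -0.52), with a summed level from 241124 to 313762 in controls and from 173013 to 215410 in mutants, and *Mbp*, *Mag* and *Cnp*, genes of myelin, fell past the threshold; DESeq2 called 5 lower and edgeR with the covariate all 8. All 8 pan-neuronal markers were below 0 (median -0.25), summing to between 182653 and 193700 in controls and between 152804 and 167040 in mutants, and *Nefl* and *Nefm*, neurofilament subunits, fell, as they did with DESeq2, and with the covariate 3 fell.

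For 8 microglia markers the median was -0.10 and the sums ran from 14229 to 14605 and from 12082 to 14016, for 6 oligodendrocyte progenitor markers it was 0.04, from 22160 to 27946 and from 24123 to 24622, and for 8 ependymal markers -0.16, from 483 to 583 and from 470 to 572, with no gene past the threshold with edgeR without the covariate. Before adjustment 2, 1 and 0 of them had a p within 0.05, DESeq2 called 1 higher, *Cspg4* of the progenitors, and edgeR with the covariate called 1 lower, *P2ry12* of the microglia. Relative to their level, the sums of 8 choroid plexus markers varied most within a genotype. They ran from 4799 to 10159 in controls and from 2428 to 7834 in mutants. The median was -0.57, and none passed the threshold with edgeR, with or without the covariate, or DESeq2. Of the 8, 1 had an unadjusted p within 0.05. None of these markers was at 0 in all libraries. The part of the cell composition of the samples in the differences of the homeostatic genes was not tested.

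**Figure D5:**
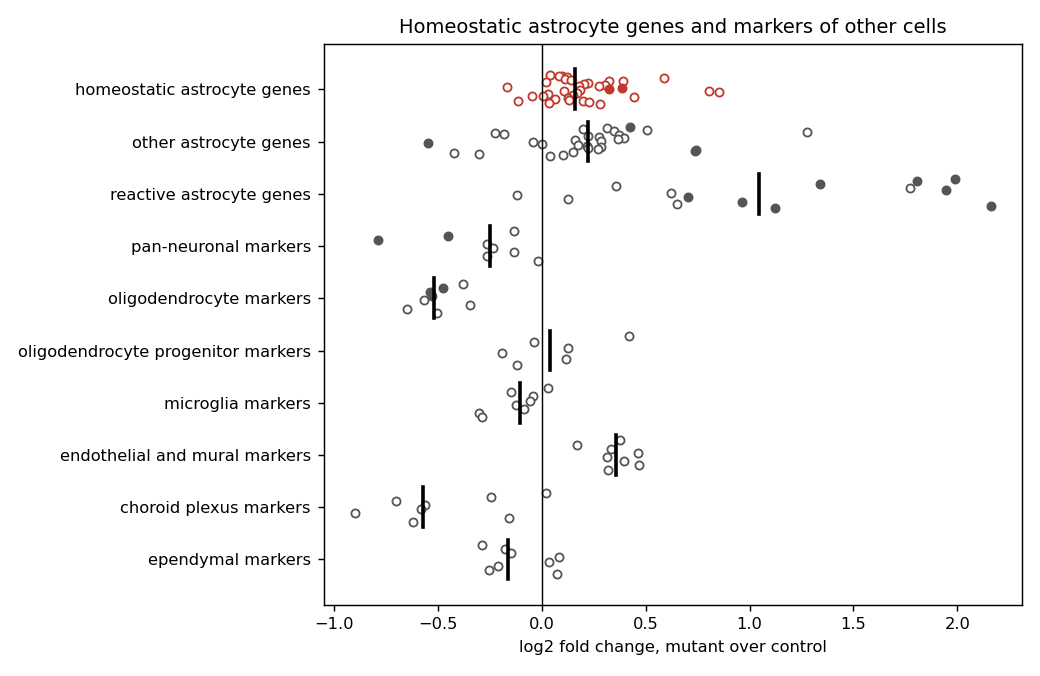
Log2 fold changes, mutant over control, of the 36 homeostatic astrocyte genes (red) and of the genes of 9 other lists (grey), with filled points for genes past the threshold and a black bar for the median of each list. The homeostatic genes center on 0.16 with 2 filled points, the reactive genes on 1.04 with 8, and the oligodendrocyte markers on -0.52 with 3.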

How the data were processed

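The authors trimmed 36-base single-end reads with CutAdapt (1.9.1 per the labels), aligned them to an Ensembl mouse transcriptome (GRCm38) with Bowtie2 (2.2.9) and deposited expected counts per gene from RSEM (1.2.31), without normalization. Their table of the genotype comparison was used for gene symbols only; its fold changes and p-values were not used. Between 32.9% and 36.0% of the values per library were not whole, because RSEM shares reads among genes.

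The expected counts were rounded, filtered (at least 10 counts in at least 3 libraries), scaled by TMM (factors 0.976 to 1.03) and tested with edgeR 4.0.16 (quasi-likelihood F test, 4 control against 3 mutant libraries, no covariate, two-sided, Benjamini-Hochberg over 19684 genes, threshold 0.05) in R 4.3.3. The SE was taken as the size of the log2 fold change divided by the root of F. Normalized counts were scaled by effective library size to its mean over libraries. Differences within runs are differences of mean log2 normalized counts (pseudocount 1) and have no test. DESeq2 1.42.0, RLE scaling, no filter, a covariate for the run of library numbers, and leaving out each library were alternatives. The fits were tested on simulated data.

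Libraries of a genotype differed by 9.36 to 65.9 chi-square per degree of freedom, above sampling noise, so each counted as 1 replicate. At a count of 0, up to 3 counts are possible, or 0.0921 CPM in the smallest library, a limit that covers counting error only. Gene positions and overlaps came from the deposited exon annotation, and shared 36-base words from GENCODE transcripts of the same build. Library numbers could not be matched to the labels' replicate numbers, sex or RNA quality, and 0 columns with values per sample went unused. The labels give 0.5 ug of RNA per library and the study's methods give 1 ug.

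All 36 genes were named, by role, with values per library for those past the threshold, for those with the smallest p-values and for *Mt1*, *Mt2*, *Mt3*, *Slc1a2*, *Slc1a3*, *Glul*, *Gja1*, *Gjb6*, *Aqp4* and *Kcnj10*; of other lists, counts, called genes and at most 3 further genes were named. The 36 genes, the other lists and the grouping of library numbers were chosen with earlier results of these data known. Values per library of further genes of the 36, and *Mtf1*, *Slc30a1* and *Dmd*, were added after values were seen. Of the lists of thyroid hormone genes and of the dystrophin complex, 1 gene each is not reported here.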

Additional observations from a re-analysis of the deposited data

Results flagged for a closer look

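In 3 of 36 genes tested for this, the lowest control library was farther from the other 3 controls than Dixon's 95% critical value allows for 4 libraries, and chance flags about 1 in 20 such groups. In each case it was control library 3, which was low. The gap was 0.884 of the range of the controls for *Ttyh1* (26055 against 26976 to 27097 normalized counts), 0.859 for *Kcnj10* (8702 against 10752 to 11089.8) and 0.856 for *Slc4a4* (6255 against 8155 to 8476). Control library 3 was the lowest control for 12 of the 36 genes and the highest for 11, and control library 2 was the lowest for 12 as well. Without control library 3 the log2 fold change of *Slc4a4* went from 0.13 to 0.037, that of *Kcnj10* from 0.19 to 0.11 and that of *Ttyh1* from 0.28 to 0.27. Without it the median log2 fold change of the 36 genes was 0.13, against 0.16 with it.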

How the results depend on the processing

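The direction of the 36 genes depended less on the processing than the calls did. The count with a positive log2 fold change was 33 with DESeq2, RLE scaling, no filter and a covariate for the run of library numbers. With 1 library left out it was 30 to 33. Across all alternatives the median log2 fold change stayed between 0.13 and 0.18. Non-overlapping genes numbered 13, and 13 to 17 with 1 library left out. Leaving out a library cannot make separated genotypes overlap, so this number could only stay or rise and is no test of stability. The counts of positive and of non-overlapping genes were repeated under alternatives chosen after seeing the data. Of the 36, 2 were called as reported and 2 with RLE scaling, 8 with DESeq2, 1 without a filter (*Mt2*, adjusted p = 0.0345), 10 with the covariate, and 0 to 2 with 1 library left out: 2 without control 3, 1 without mutant 5 (*Cst3*) and none without control 2, 10 or 11 or mutant 12 or 13, where fewer samples were tested. Of 30 other astrocyte genes, 4 were called, 10 with the covariate and 1 to 3 with 1 library left out. Over all tested genes 954 were called, 1734 with DESeq2, 2205 with the covariate and 302 to 971 with 1 library left out. The cause of the differences between tools was not tested.

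Signs changed with 1 library left out for 7 genes near 0, whose log2 fold changes then ran from -0.18 to 0.0032 (*Slc7a10*), from -0.0014 to 0.17 (*Aldoc*), from -0.024 to 0.083 (*Dio2*), from -0.046 to 0.085 (*Pla2g7*), from -0.11 to 0.013 (*S100b*), from -0.021 to 0.10 (*Ndrg2*) and from -0.020 to 0.093 (*Sparcl1*). The mean log2 level of the 36, which weighs them equally, was higher in all mutants than in all controls, as the summed level was. No paired analysis was possible because the columns of the count table give genotypes with library numbers in place of the replicate number of the labels. With 3 and 4 pools per genotype, a difference that misses the threshold is not shown to be absent.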

Other observations

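Ratios between the 36 genes within a library do not depend on library size. *Glul* over *Slc1a3* was 1.96, 2.18, 2.17 and 2.17 in the controls (libraries 2, 3, 10 and 11) and 2.40, 2.39 and 2.25 in the mutants (libraries 5, 12 and 13), so the mutants lay above all controls. *Slc1a2* over *Slc1a3*, the main glutamate transporters, ran from 5.94 to 10.1 in controls and from 8.54 to 11.5 in mutants, with overlap. *Gja1* over *Gjb6* ran from 3.60 to 4.89 and from 4.08 to 4.86. *Mt1* over *Mt2* overlapped between genotypes and ran from 2.31 to 2.85 in controls and from 2.10 to 2.96 in mutants, whereas *Mt2* over *Mt3* moved with the run of library numbers as well, at 0.198 and 0.270 in control libraries 2 and 3, 0.421 and 0.491 in control libraries 10 and 11, and 0.433, 0.622 and 0.591 in the mutants. No test was run on these ratios, which were chosen after the values of the genes were seen.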
